A study of Homo sapiens with 4 samples.

Results

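Histone genes were examined in SW480 and SW620 cells, established human colorectal cancer cell lines, after knockdown of SHMT2, the mitochondrial serine hydroxymethyltransferase. The genes were chosen by symbol, as HIST1H, HIST2H, HIST3H and HIST4H for the replication-dependent histones and H1F, H2AF and H3F for the variants. Of 26364 rows in the count table, 91 carried such a symbol, 73 of the replication-dependent and 18 of the variant kind. A minimum of 10 counts in 2 or more libraries left 32 genes, 23 replication-dependent and 9 variant, among 14024 genes tested. There were 4 RNA libraries, 1 of SHMT2-knockdown and 1 of control cells for each line. In the knockdown system of the study, doxycycline switches on a short hairpin RNA carried by the cells. The study names the controls control shRNA cells and the labels name them only as control, and neither source states whether they received doxycycline or which hairpin was sequenced. Each condition was 1 culture of a line, so P values measure only the spread between these samples.

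Replication-dependent histones are made in S phase and package new DNA. Their mRNAs end in a short stem-loop rather than a poly(A) tail, are bound there by SLBP and are degraded when replication stops. Most variant histones are made throughout the cell cycle from ordinary polyadenylated mRNAs and replace the canonical proteins at chosen places, while H2AFX is known to make a stem-loop mRNA as well as a polyadenylated one. H2A.Z and H3.3 sit at promoters and active genes, H2A.X marks DNA breaks once phosphorylated, macroH2A is enriched in silent chromatin, and linker histones of the H1 class bind the DNA between nucleosomes. The library kit named in the labels selects poly(A) RNA, so it catches the replication-dependent mRNAs poorly. What it does catch can come from transcripts that run past the stem-loop to a poly(A) site, as some of these genes are known to make in cells that leave the cycle.

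The stem-loops are shown for 3 of the 4 genes that, among those past the count limit, differed most between the lines. HIST1H2BD, which differed little and is one of the genes often also polyadenylated, is shown beside them. The search was for a 6-base stem beginning with GG, a 4-base loop beginning with TTT and a perfectly paired second stem, on the transcribed strand of the annotated transcripts. Capitals mark the stems and small letters the loop.
HIST1H2BG: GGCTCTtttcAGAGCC
HIST1H2BE: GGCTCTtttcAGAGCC
HIST1H4H: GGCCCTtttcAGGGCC
HIST1H2BD: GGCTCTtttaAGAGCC
These lie on GRCh38 at chr6:26216218-26216233 (minus strand), chr6:26184210-26184225 (plus strand), chr6:26285131-26285146 (minus strand) and chr6:26158587-26158602 (plus strand), each downstream of the stop codon. In HIST1H2BJ, the remaining one of the 4, no such loop was found, although its annotated transcript reached 569 bases past the stop codon. Of the 23 replication-dependent genes, 17 had an annotated coding transcript reaching past the stop codon far enough to hold a stem-loop, and 13 of these held one. In 10 of the 13, a transcript ran 100 bases or more past it, up to 1729 bases in HIST2H2BE, 1059 bases in HIST1H2BG and 1022 bases in HIST1H4E. Among the variants, H2AFX held a stem-loop, with 821 to 1044 bases after it. The annotated transcripts of HIST1H4C and HIST1H2BK, the most abundant replication-dependent rows, ended 51 bases and 0 bases after the stop codon, so the search could not reach a loop in HIST1H2BK.

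Promoters are shown for HIST1H2BG and HIST1H2BJ, which were far higher in SW620, and for HIST1H2BK, which differed by less, all H2B genes of chromosome 6. Each sequence runs from 250 bases before to 50 bases after the start that RefSeq gives on GRCh38.p14, at chr6:26216639-26216938, chr6:27132746-27133045 and chr6:27146806-27147105, all on the minus strand. Capitals mark CCAAT, which NF-Y is known to bind, the TATA box as the letters TATAAA, and the octamer ATTTGCAT, which OCT1 is known to bind in H2B promoters. Matches on either strand were taken and may overlap.
HIST1H2BG: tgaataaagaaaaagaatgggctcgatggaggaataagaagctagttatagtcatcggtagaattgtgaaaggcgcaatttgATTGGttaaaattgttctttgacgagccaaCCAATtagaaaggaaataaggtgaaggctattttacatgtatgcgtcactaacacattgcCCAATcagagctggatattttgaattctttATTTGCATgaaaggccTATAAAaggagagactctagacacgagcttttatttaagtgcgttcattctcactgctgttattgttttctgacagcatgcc
HIST1H2BJ: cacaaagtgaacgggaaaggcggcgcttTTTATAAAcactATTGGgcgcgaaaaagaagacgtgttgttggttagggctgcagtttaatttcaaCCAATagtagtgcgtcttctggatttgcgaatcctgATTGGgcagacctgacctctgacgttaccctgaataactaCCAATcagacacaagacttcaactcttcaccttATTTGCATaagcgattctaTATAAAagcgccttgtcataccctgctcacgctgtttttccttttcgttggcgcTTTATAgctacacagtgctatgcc
HIST1H2BK: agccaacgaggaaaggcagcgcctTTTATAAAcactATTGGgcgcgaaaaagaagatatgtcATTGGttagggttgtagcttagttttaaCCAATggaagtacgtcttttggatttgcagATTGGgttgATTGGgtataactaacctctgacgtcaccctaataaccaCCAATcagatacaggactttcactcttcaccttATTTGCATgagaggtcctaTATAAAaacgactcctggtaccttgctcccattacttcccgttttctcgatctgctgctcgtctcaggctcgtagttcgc
All 3 promoters held each of the 3 motifs. Over the replication-dependent genes, 21 of 23 had a promoter in the table, and CCAAT was in 18, TATAAA in 14 and the octamer in 10. All 10 H2B genes held CCAAT, and 8 each held TATAAA and the octamer. Of the 9 variant genes, 8 had a promoter, with CCAAT in 6, TATAAA in 4 and the octamer in 1. Among all 35116 promoters of the table the shares were 34.6% for CCAAT, 11.5% for TATAAA and 1.77% for the octamer. These matches are descriptions of the sequence.

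The libraries held 5530129 to 13774288 counts. SHMT2, the targeted gene, fell from 2661 to 205 counts in SW480 cells and from 3751 to 640 counts in SW620 cells, leaving 11.2% and 6.92% of its control level in CPM, which here and below is scaled by TMM unless stated otherwise. Epithelial markers were present in both lines, with EPCAM at 1831 to 5978 counts and KRT8 at 16537 to 60779 counts. VIL1 and LGR5 were at 0 to 2 counts in the SW480 libraries and at 343 to 5105 counts in the SW620 libraries, and KRT20 was at 15 counts or fewer throughout. Of 9 markers of blood, fibroblasts and endothelium, 6 were at 0 to 2 counts in every library, and CD68, COL1A1 and VWF had 4 to 203 counts.

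Variant histones made up nearly all histone counts. Summed over all rows of the variant families, they took 2347 CPM in control SW480, 2361 in knockdown SW480, 2262 in control SW620 and 2168 in knockdown SW620 cells. The replication-dependent families took 143.6, 164.9, 265.6 and 270.6 CPM in the same libraries. These sums are shares of the library total without TMM scaling. Division by transcript length allows only a rough comparison of genes, since the annotated lengths differ in how much lies outside the coding part. HIST1H2BK was divided by 381 bases, with 0 after the stop codon, and H2AFV by 3804 bases. On this scale H2AFZ stood highest at 399 CPM per kb of its longest annotated coding transcript, as a mean over the 4 libraries. H3F3B followed at 243, HIST1H4C at 195, H1F0 at 177, H2AFX at 115, H2AFY at 114 and HIST1H2BK at 103 CPM per kb. The remaining variants had 29.8 to 42.5 CPM per kb and the remaining replication-dependent genes 0.448 to 18.0 CPM per kb. Thus, with these lengths, 2 replication-dependent genes were at the level of the variants, and the other 21 were below every variant.

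**Figure D1:**
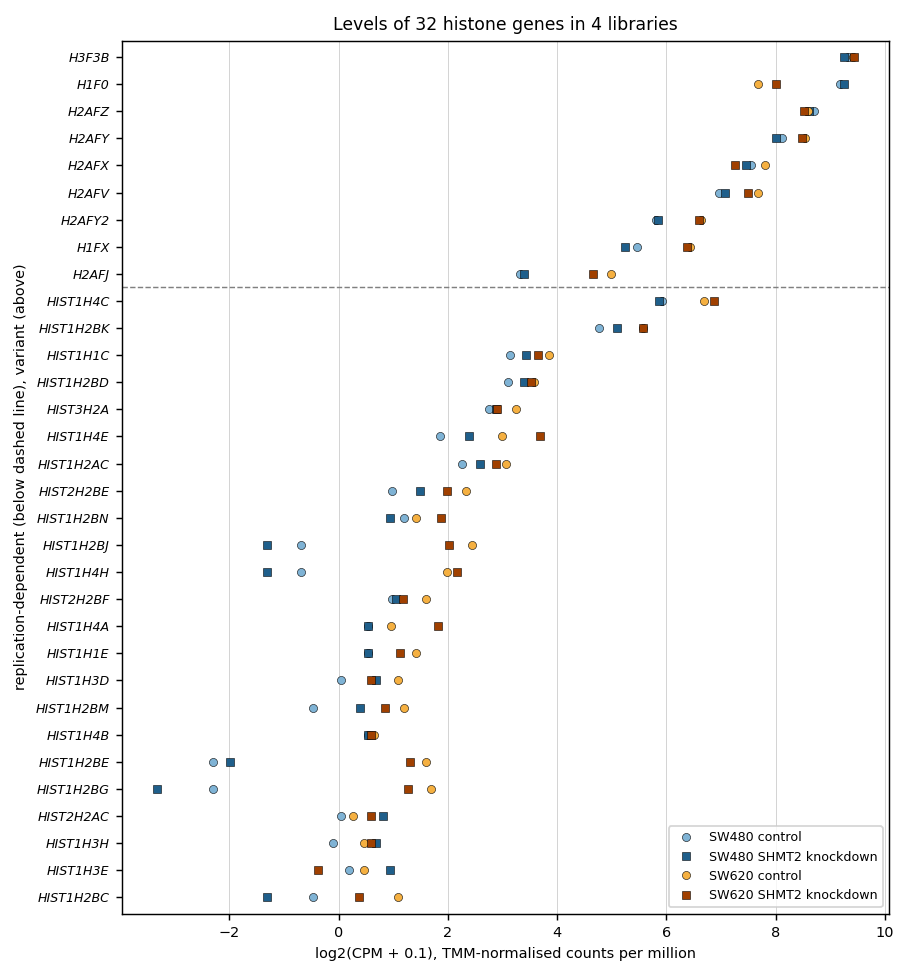
Levels of the 32 histone genes in each library, on a log2 scale of TMM-normalised CPM with 0.1 added, variants above the dashed line and replication-dependent genes below it, each ordered by mean level. Points are single libraries. HIST1H4C (58.5 to 118 CPM) and HIST1H2BK (27.3 to 47.7 CPM) lie in the range of the lower variants, and HIST1H2BG, HIST1H2BE, HIST1H2BJ and HIST1H4H show both SW620 libraries far to the right of both SW480 libraries.

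Of the 91 rows, 21 were at 0 in every library, which allows up to 3 counts of a library's total, for counting error only. In 11 of these, 90% or more of the 50-base stretches of the annotated transcripts were also found in another gene, as in the copies HIST2H2AA3 and HIST2H2AA4 or HIST2H4A and HIST2H4B. H3F3A, which encodes H3.3 like H3F3B, was also listed at 0 in all 4 libraries, although only 12.9% of its stretches were shared, while H3F3B had 3708 to 9356 counts. How reads with several matches were counted is not given in the sources used here, so a 0 in these rows is not read as lack of expression. Among the members, only HIST1H2BK (74.1%) and HIST1H3D (100%) had 50% or more of their stretches in common with another gene.

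SHMT2-knockdown cells were first compared with controls over both lines, by edgeR's quasi-likelihood test in a model that also held the line. None of the 32 histone genes passed an adjusted p under 0.05, against 1.66% of all genes. Without adjustment, at a limit of 0.05 on P, 1 histone gene was lower (H2AFX), against 4.91% of all genes, and 2 were higher (H1F0 and HIST1H4E), against 4.15%. The number called was near the background. The median log2 fold change was -0.09 for the 9 variants and 0.05 for the 23 replication-dependent genes, against 0.01 for all genes. With the DESeq2 Wald test, or without the cell line in the model, 0 of the 32 genes passed either limit. In bulk RNA, fewer cells making a transcript and less of it per cell cannot be told apart.

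H2AFX, the gene of H2A.X, which is phosphorylated at DNA breaks, had the smallest P of the family. Its level was 188 CPM in control and 175 CPM in knockdown SW480 cells, and 224 CPM in control and 154 CPM in knockdown SW620 cells. Both knockdown values lay below both control values, although the gap in SW480 was small. The log2 fold change was -0.32 (SE 0.11, unadjusted P = 0.0048, adjusted p = 0.158). By line it was -0.10 in SW480 and -0.55 in SW620, with counting errors of 0.05 each, and the difference between the lines could not be tested with 1 library per line and condition.

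H1F0 encodes the linker histone H1.0, known to accumulate in cells that stop dividing or differentiate. It rose at the unadjusted limit, with 578 CPM in control and 614 CPM in knockdown SW480 cells, and 205 CPM in control and 258 CPM in knockdown SW620 cells. Each line's knockdown value was above its control, but the groups overlapped across lines. The log2 fold change was 0.20 (SE 0.10, unadjusted P = 0.0468, adjusted p = 0.536), or 0.09 in SW480 and 0.33 in SW620. The call rested on the settings, since the P was above the limit, at 0.0540 to 0.846, under 5 of 6 other models. H1FX, the gene of linker histone H1.X, had 44.0 and 38.0 CPM in SW480 and 86.7 and 83.5 CPM in SW620, control before knockdown, and did not pass (log2 fold change -0.13, SE 0.13).

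The other H2A variants moved little. H2AFZ and H2AFV encode forms of H2A.Z. H2AFZ had 418 and 390 CPM in SW480 and 389 and 365 CPM in SW620, control before knockdown, a log2 fold change of -0.10 (SE 0.10). H2AFV had 125 and 135 CPM in SW480 and 205 and 181 CPM in SW620, a log2 fold change of -0.03 (SE 0.12). Neither passed, and H2AFV went in opposite directions in the lines. For the macroH2A genes H2AFY and H2AFY2, log2 fold changes were -0.09 (SE 0.11) and -0.0044 (SE 0.13). H2AFJ, a replication-independent H2A, had 9.89 and 10.4 CPM in SW480 and 31.5 and 25.1 CPM in SW620, with a log2 fold change of -0.17 (SE 0.20). H3F3B, the gene of H3.3 that was read, had 645 and 613 CPM in SW480 and 680 and 696 CPM in SW620. Its log2 fold change was -0.02 (SE 0.10), with an approximate 95% interval of -0.21 to 0.17, the narrowest of the family.

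Replication-dependent genes had fewer counts and wider errors. HIST1H4E, an H4 gene, was the only one with an unadjusted P of 0.05 or less. It had 34 counts in control and 34 in knockdown SW480 cells (3.54 and 5.13 CPM) and 43 in control and 172 in knockdown SW620 cells (7.88 and 12.8 CPM). The log2 fold change was 0.63 (SE 0.30, unadjusted P = 0.0332, adjusted p = 0.464), or 0.51 in SW480 and 0.68 in SW620. HIST1H4C, the H4 gene with the highest level of the set, had 60.3 and 58.5 CPM in SW480 and 103 and 118 CPM in SW620, control before knockdown. The log2 fold change was 0.08 (SE 0.13), with an approximate 95% interval of -0.17 to 0.33. HIST1H4A had 13, 9, 10 and 46 counts in control SW480, knockdown SW480, control SW620 and knockdown SW620 cells, and a log2 fold change of 0.53 (SE 0.50).

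In the H2B class, HIST1H2BK had 27.3 and 34.1 CPM in SW480 and 47.7 and 47.3 CPM in SW620, a log2 fold change of 0.14 (SE 0.14). HIST1H2BD had 8.54 and 10.4 CPM in SW480 and 11.9 and 11.4 CPM in SW620, a log2 fold change of 0.11 (SE 0.25). These 2 genes and HIST1H1C, HIST1H2AC, HIST1H2BC and HIST2H2BE are known to be often also polyadenylated, and none of the 6 passed either limit. HIST1H1C, a linker histone gene, had a log2 fold change of 0.03 (SE 0.24), and HIST1H2AC, an H2A gene, one of 0.05 (SE 0.30). HIST2H2BE had a log2 fold change of -0.01 (SE 0.41). The lowest estimates were those of HIST1H2BC at -0.81 (SE 0.70), HIST1H2BG at -0.49 (SE 0.64) and HIST1H2BJ at -0.47 (SE 0.49), each with 6 counts or fewer in both SW480 libraries. HIST2H2BF (-0.22, SE 0.48) and HIST3H2A (-0.12, SE 0.28) completed the 5 lower genes with the smallest P, and HIST2H2AC (0.60, SE 0.63) and HIST1H3H (0.48, SE 0.63) the higher ones.

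The sign of the change often differed between the lines in the replication-dependent genes, but most within-line values were smaller than their counting errors. Among the 23, 3 were lower and 4 were higher in both lines, and 16 went in opposite directions, against 6764 of 14024 for all genes. The median change of the set was 0.19 (log2) within SW480, the value of HIST1H2BE with 1 and 1 counts, and -0.19 within SW620. In SW480, HIST1H1C, HIST1H2AC, HIST1H2BD and HIST1H2BK had log2 fold changes of 0.29, 0.31, 0.28 and 0.32, with counting errors of 0.23, 0.31, 0.23 and 0.13. In SW620 the same genes had -0.19, -0.17, -0.06 and -0.01, with counting errors of 0.20, 0.26, 0.21 and 0.11. These within-line values have no replicate, and no test of the difference between lines was possible. All genes of a line were read in the same pair of libraries, so they are not replicates of a direction.

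**Figure D2:**
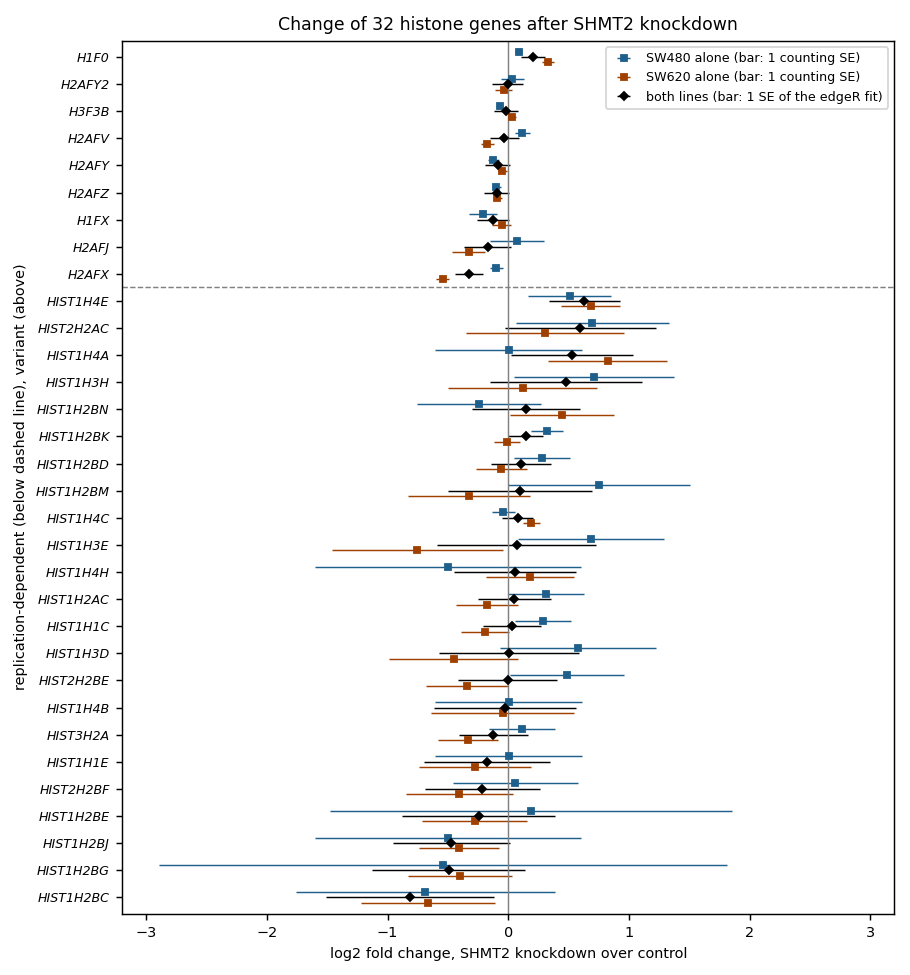
Log2 fold change of each histone gene, SHMT2 knockdown over control, variants above the dashed line and replication-dependent genes below it. Squares are single lines with 1 counting error, and black diamonds are the fit over both lines with 1 standard error. H2AFX at -0.32, H1F0 at 0.20 and HIST1H4E at 0.63 are the genes past the unadjusted limit, and the bars of most replication-dependent genes cross 0.

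Class sums over all rows, including those under the count limit, were read as values. H4 rows took 68.2 CPM without TMM scaling in control and 70.0 in knockdown SW480 cells, and 119 in control and 140 in knockdown SW620 cells. The exact 95% binomial intervals were 110 to 129 and 134 to 147 in SW620, and they cover counting error only. H2B rows took 46.1 and 56.6 CPM in SW480 and 90.8 and 85.6 in SW620. H2A rows took 14.9 and 19.1 in SW480 and 28.4 and 22.9 in SW620, H1 rows 10.2 and 12.6 in SW480 and 17.4 and 14.8 in SW620, and H3 rows 4.17 and 6.68 in SW480 and 9.76 and 7.26 in SW620. In the SW480 pair every class but H4 was higher after knockdown by 0.25 to 0.64 on the log2 scale of normalised sums. The counting errors of these 4 changes were 0.10 to 0.32. In the SW620 pair the same 4 classes were lower, at -0.07 to -0.41, with counting errors of 0.08 to 0.24. The change of H2B in SW620 was smaller than its counting error. H4 was higher in SW620 by 0.25 (counting error 0.07). With 1 library per line and condition, these directions were not tested.

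**Figure D3:**
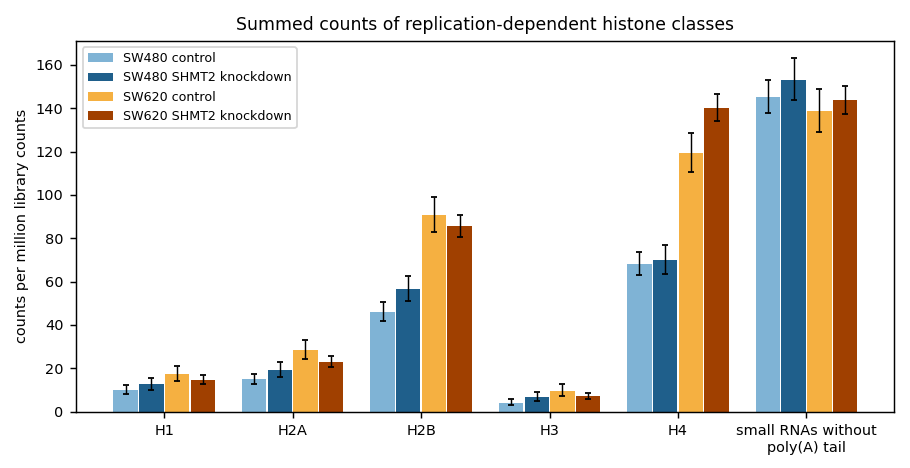
Summed counts of the replication-dependent histone classes and of listed small RNAs without a poly(A) tail, as CPM of each library without TMM scaling. Bars are single libraries and error bars exact 95% binomial intervals. The H2B and H4 bars of the SW620 libraries (85.6 to 140 CPM) are above those of the SW480 libraries (46.1 to 70.0), while the small RNAs lie between 138 and 153 in all 4.

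The supply of histones was examined through a list of 47 genes that transcribe, process, degrade or chaperone histones and their mRNAs, every one of them among the tested genes. At an adjusted p under 0.05, 0 of the 47 passed. The unadjusted limit was passed by 7 genes that were lower, against the 4.91% above, and by 2 that were higher, against 4.15%. With the DESeq2 Wald test these counts were 2 and 0, and without the cell line 0 and 0. The median log2 fold change was -0.08. Of the 7, 5 were among the 9 chaperones that deposit new histones in S phase. These were MCM2 (-0.30, SE 0.10), the helicase subunit that also binds H3-H4, NASP (-0.31, SE 0.11), CHAF1A (-0.32, SE 0.12) and CHAF1B (-0.38, SE 0.14), the large subunits of CAF-1, and ASF1B (-0.28, SE 0.13). All 5 were lower in both lines, as were 24.7% of all genes. This follows largely from their selection by a fit over both lines and is no added support. The other 4 chaperones did not pass, with HAT1 at -0.16, RBBP7 at -0.12, RBBP4 at 0.03 and ASF1A at 0.19.

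SLBP, which binds the stem-loop and is needed for processing and translation of these mRNAs, was among the 7. It had 123 and 95.8 CPM in SW480 and 129 and 107 CPM in SW620, control before knockdown. Both knockdown values lay below both controls, with a log2 fold change of -0.31 (SE 0.12, unadjusted P = 0.0105, adjusted p = 0.253). HJURP, the chaperone of the centromeric H3, completed the 7 at -0.27 (SE 0.13). CENPA, that H3 itself, had 12.4 and 10.4 CPM in SW480 and 18.2 and 15.0 CPM in SW620, a log2 fold change of -0.26 (SE 0.22) that did not pass. The 2 genes that were higher were LSM11 (0.46, SE 0.22), a U7 snRNP subunit for histone 3′ end processing, and DCP2 (0.31, SE 0.13), a decapping enzyme. NPAT, the coactivator of replication-dependent histone genes, had 34.1 and 36.8 CPM in SW480 and 45.8 and 45.2 CPM in SW620, a log2 fold change of 0.04 (SE 0.14).

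The larger differences were between the cell lines. Of the 32 genes, 14 were higher in SW620 than in SW480 at an adjusted p under 0.05, against 32.3% of all genes tested, and 1 was lower, against 31.3%. The 14 were 9 of 23 replication-dependent genes and 5 of 9 variants. These counts describe the members and are no support for a pattern, since 6 replication-dependent genes had under 10 counts in both SW480 libraries and entered only through SW620, and 5 of these are among the 9. Of the 11 replication-dependent genes with 10 counts or more in both SW480 libraries, 4 were higher.

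Among the 23 replication-dependent genes tested, HIST1H2BG, HIST1H2BE, HIST1H2BJ and HIST1H4H differed most. They lie on chromosome 6, as do all 19 HIST1 genes of the 23. Rows under the count limit had ratios of similar size. HIST1H2AK, an H2A gene, stood at 15.5 (95% counting interval 2.44 to 644) and HIST1H3I, an H3 gene, at 12.9 (1.98 to 542). Which classes differed most thus depends on that limit. HIST1H2BG, at chr6:26215159-26216692 on the minus strand of GRCh38, had 1 count in control and 0 in knockdown SW480 cells, against 17 and 31 in the SW620 pair. Its level summed over both conditions was 41.2 times as high in SW620, with a 95% counting interval of 7.05 to 1662. HIST1H2BE, at chr6:26172059-26184655 on the plus strand, had 1 and 1 counts in SW480 and 16 and 32 in SW620, a ratio of 20.6 with an interval of 5.40 to 175. Both H2B genes were thus at the limit of detection in SW480 and not in SW620.

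HIST1H2BJ, at chr6:27125897-27132750 on the minus strand, had 5 and 2 counts in SW480 and 29 and 53 in SW620. The log2 difference, SW620 over SW480, was 3.43 (SE 0.58). HIST1H4H, at chr6:26277609-26285638 on the minus strand, had 5 and 2 counts in SW480 and 21 and 59 in SW620, a log2 difference of 3.23 (SE 0.59). These 4 genes passed the count limit only through SW620, so their differences are descriptions and no p is given. The 4 genes were also picked for the size of this difference. That both SW620 values lay above both SW480 values follows largely from this choice and is no support. The same order held in 5713 of all 14024 genes. With a prior count of 2, the log2 difference was 2.53 to 3.48 within the controls and 2.48 to 3.02 within the knockdowns.

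Abundant replication-dependent genes differed by less. HIST1H4C was higher in SW620 by 0.89 on the log2 scale (SE 0.13, adjusted p = 2.73e-11), HIST1H4E by 1.24 (SE 0.30) and HIST1H2BK by 0.63 (SE 0.14). HIST1H2BC, with 6, 2, 11 and 16 counts in the order of control and knockdown SW480 and control and knockdown SW620, differed by 1.76 (SE 0.74) but entered only through SW620, and HIST2H2BE by 0.93 (SE 0.41). HIST1H1C (0.45, SE 0.24), HIST1H2AC (0.55, SE 0.30) and HIST1H2BD (0.30, SE 0.25) did not pass. The 8 genes of the H1, H2A and H3 classes did not pass, with log2 differences from -0.67 in HIST1H3E to 0.76 in HIST1H1E. HIST1H3E entered only through SW480, with 10 and 12 counts there and 7 and 9 in SW620, control before knockdown.

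**Figure D4:**
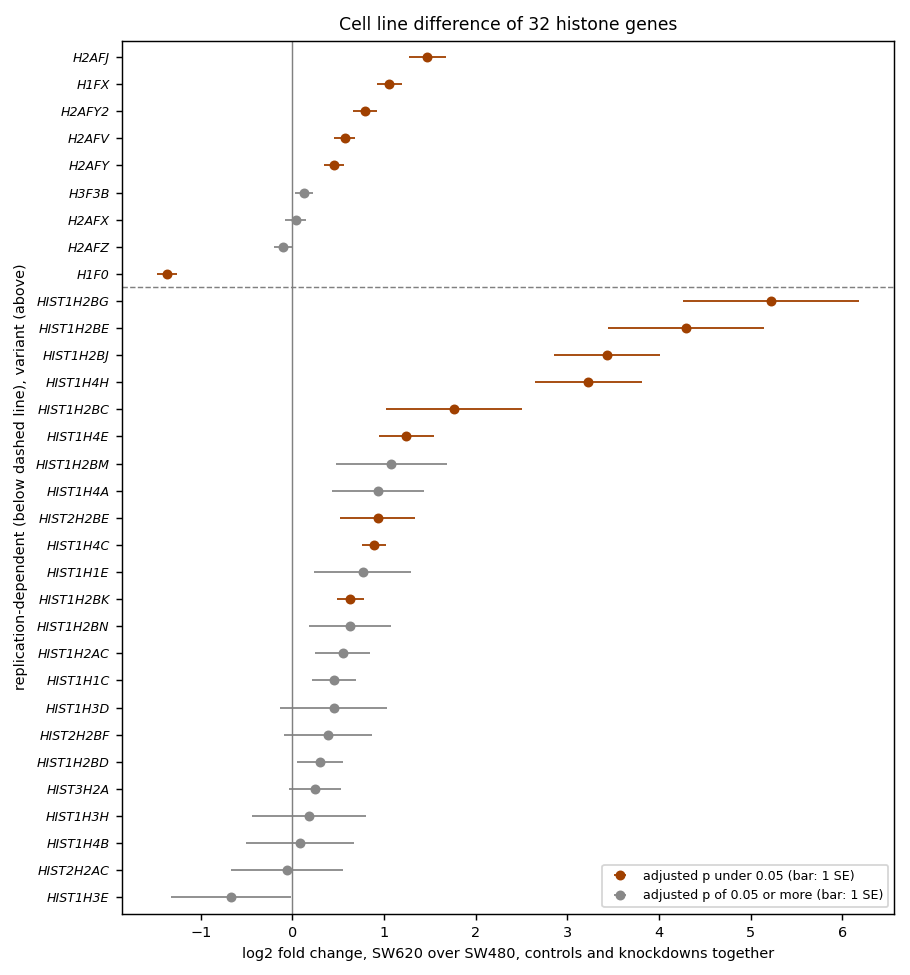
Log2 fold change of each histone gene between the lines, SW620 over SW480, from the fit with both conditions, variants above the dashed line and replication-dependent genes below it. Bars are 1 standard error and colour marks an adjusted p under 0.05. HIST1H2BG, HIST1H2BE, HIST1H2BJ and HIST1H4H stand at 3.23 or more, and H1F0 at -1.37 is the only coloured gene below 0. These 4 genes at 3.23 or more and HIST1H2BC passed the count limit only through SW620. Their colour is therefore no support for a difference.

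Just inside the count limit stood HIST2H2AC, with 9 and 11 counts in control and knockdown SW480 cells and 6 and 19 in SW620, and just outside it HIST1H2AG, with 4 and 6 counts and 9 and 10. Summing all 73 replication-dependent rows avoids that limit. The normalised sum in SW620 was 1.88 times that in SW480 among controls (95% counting interval 1.75 to 2.02) and 1.73 times among knockdowns (1.62 to 1.86). Without HIST1H4C the ratios were 2.0 and 1.57. Which rows fall under the limit depends on the counts of both lines, so these are described only. Some of them were at 0 in both SW480 libraries and above 0 in both SW620 libraries, often near the floor. HIST1H1B, for example, had 2 and 3 counts in control and knockdown SW620 cells. Such zeros depend on depth, and knockdown SW620 was the deepest library, with 13774288 counts. HIST1H2BH had 6 and 25 counts in control and knockdown SW620 cells. This was 8.9-fold the level of the 3 counts allowed over both SW480 libraries, with no error allowed on the SW620 counts. HIST1H2AE had 7 and 17 counts (6.87-fold on the same terms) and HIST1H2AL 6 and 15 counts (6.01-fold). The often also polyadenylated HIST4H4, the single member of its locus, stood under the limit with 3, 5, 6 and 22 counts in control SW480, knockdown SW480, control SW620 and knockdown SW620 cells, a ratio of 3.01 with an interval of 1.33 to 7.63.

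Small RNAs without a poly(A) tail, mostly snoRNAs from introns of other genes, were read in the same way, although their rows can also hold reads of the host transcripts. The 407 rows took 145 and 153 CPM in SW480 and 138 and 144 in SW620. Whether the capture of RNA without a poly(A) tail had a part in the histone differences was not tested. Of 43 that passed the count limit, 0 passed the adjusted limit after knockdown in edgeR, against 1.66% of all genes. At the unadjusted limit 0 passed as well, against 4.91% lower and 4.15% higher. Between the lines, at an adjusted p under 0.05, 3 were higher and 2 lower in SW620, against 32.3% and 31.3% of all genes.

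**Figure D5:**
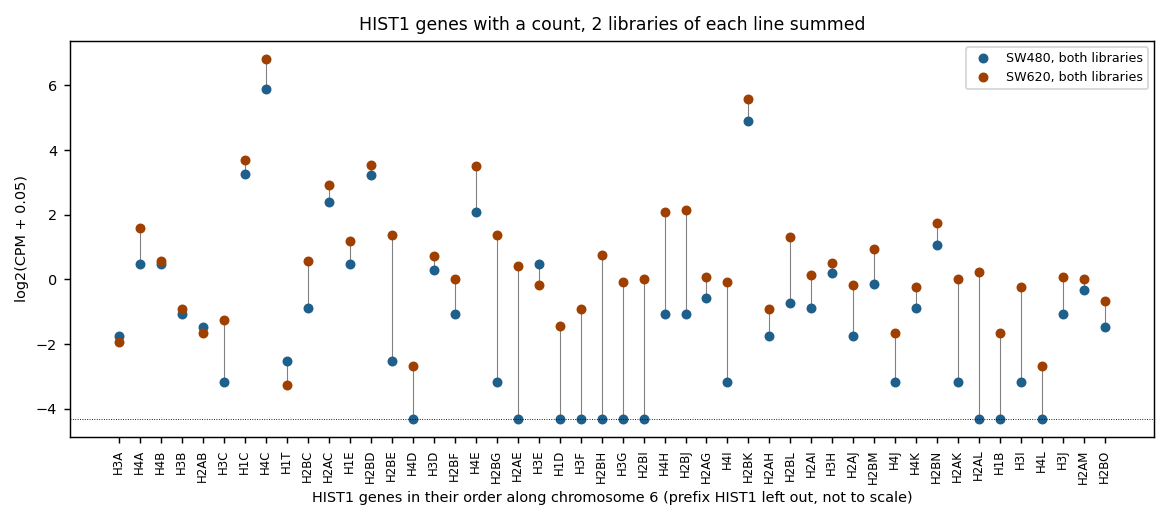
HIST1 genes with at least 1 count, in their order along chromosome 6 and not to scale, as log2 of CPM with 0.05 added, with the 2 libraries of each line summed. Points on the dotted line are at 0. Of 48 genes, 10 are at 0 in SW480. HIST1H1D, HIST1H3F, HIST1H2BH, HIST1H3G and HIST1H2BI follow one another in this order, as do HIST1H2AL and HIST1H1B. HIST1H4D, HIST1H2AE and HIST1H4L stand singly between genes with counts in SW480. Many rows hold few counts, such as HIST1H4D with 2 counts in knockdown SW620 cells only. A 0 also depends on depth, and knockdown SW620 was the deepest library, with 13774288 counts.

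Variants differed in both directions between the lines. H1F0, at chr22:37805093-37807436 on the plus strand, was lower in SW620 by 1.37 on the log2 scale (SE 0.10, adjusted p = 9.60e-38), with 205 and 258 CPM against 578 and 614 CPM in SW480. H1FX, the other linker histone, was higher in SW620 by 1.06 (SE 0.13), so the H1 variants differed in opposite directions. H2AFJ was higher by 1.47 (SE 0.20), H2AFY2 by 0.80 (SE 0.13), H2AFV by 0.57 (SE 0.12) and H2AFY by 0.45 (SE 0.11). H2AFZ (-0.10, SE 0.10), H2AFX (0.03, SE 0.11) and H3F3B (0.13, SE 0.10) did not pass. The summed variant rows were accordingly alike, with SW620 at 0.979 times SW480 among controls (95% counting interval 0.958 to 1.00) and at 0.969 times among knockdowns (0.95 to 0.988).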

How the data were processed

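Total RNA of 4 libraries was sequenced from Illumina TruSeq RNA kits, per the labels, while the paper names Agilent platforms, an RNA-seq in its results and a microarray in its methods. The authors deposited raw read counts per gene symbol, without normalization. The submitters' processing notes name Bowtie 0.12.2 and hg18, and the counting program, the annotation, the use of strand and the handling of reads with several matches are not given in the sources used here. In 28 rows a symbol had been turned into a date, and these rows were kept. Genes with at least 10 counts in 2 or more libraries were fitted with edgeR 4.0.16 (TMM, quasi-likelihood, two-sided, Benjamini-Hochberg over 14024 genes) in R 4.3.3, with terms for cell line and treatment, which left 1 residual degree of freedom. The line pairs each knockdown with its control (correlation of their deviations from the condition means across genes, 0.961). DESeq2 1.42.0 was an alternative. Within-line log2 values used a prior count of 2. Counting intervals are exact binomial at 95% and zero bounds use 3 counts. Folds over such a bound allow no error on the SW620 counts. Approximate 95% intervals of fitted changes are 1.96 standard errors either side. The test recovered 83.4% of 193 genes simulated at a log2 change of 1 on these totals, and called 10 unchanged genes. The changed genes were drawn from all genes past the count limit. This rate therefore does not describe genes with few counts, such as most replication-dependent histones. Transcripts came from GENCODE 29 on GRCh38 and promoters from RefSeq on GRCh38.p14, neither of which is the authors' build. Named genes were every variant, the 5 replication-dependent genes of smallest P in each direction (0 passed an adjusted p of 0.05), the most abundant of each class, those often also polyadenylated, the 3 with the largest line difference in each direction at an adjusted p under 0.05 (1 in the lower direction), SLBP, NPAT, CENPA and SHMT2, and other genes were named after their values were seen. Members and lists were chosen with earlier results of these data known.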

Additional observations from a re-analysis of the deposited data

Results flagged for a closer look

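A signal appeared in histone rows that entered no test. The 35 replication-dependent rows with counts but under the limit held 71 counts in control SW480, 58 in knockdown SW480, 139 in control SW620 and 318 in knockdown SW620 cells. This was 7.40, 9.02, 25.1 and 23.1 CPM without TMM scaling. The limit that left these rows out depends on the counts of both lines, so no ratio between the lines is drawn from them. Over all 73 replication-dependent rows the ratio of SW620 to SW480 was 1.88 among controls and 1.73 among knockdowns. No named histone gene moved in opposite directions in the 2 lines by more than 1.96 counting errors in each.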

How the results depend on the processing

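The knockdown calls were few and depended on the model. The 1 variant gene lower at the unadjusted limit (H2AFX) became 0 with the DESeq2 Wald test and with no replicate block, where the cell line pairing is dropped. The 1 variant gene higher (H1F0) became 0 with no filter, the 50-count filter, the DESeq2 Wald test, no replicate block and thinning. The 1 replication-dependent gene higher (HIST1H4E) became 0 with the 50-count filter, the DESeq2 Wald test, no replicate block and thinning. In the supply list, 7 lower became 2 with DESeq2 and 0 with no replicate block, and 2 higher became 0 with DESeq2, no replicate block and thinning. At an adjusted p under 0.05 every alternative gave 0 in the 3 lists. Between the lines, 9 replication-dependent genes higher in SW620 became 16 of 58 with no filter, 2 of 5 with the 50-count filter and 5 with DESeq2. The variant median of -0.09 became -0.073 with no filter and lay between -0.072 and -0.055 in the single lines. The supply median of -0.08 lay between -0.13 and -0.088 in the single lines, and the replication-dependent median of 0.05 between -0.19 and 0.19. Of 186 alternative values of named genes that were not called, 25 had another sign, and 0 called values reversed. DESeq2's size factors moved the median change by 0.01. With 1 library per line and condition, and under 50 counts in most replication-dependent genes, changes below the standard errors given could not be seen. Larger ones could also be missed. HIST1H4E at 0.63 (SE 0.30) and H2AFX at -0.32 (SE 0.11) did not pass the adjusted limit.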

Other observations

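Genes of other families that lie between the first and last HIST1 gene of chromosome 6 were read after the histone values had been seen. Of 19 that were tested, 6 were higher and 2 lower in SW620 than in SW480 at an adjusted p under 0.05, against 32.3% higher and 31.3% lower among all genes, so the share that was higher was at the background. HCG11, ZNF391 and GUSBP2 below passed the count limit only through SW620, and BTN1A1 only through SW480. In the 19 genes the median log2 difference was 0.17. HCG11, a long non-coding RNA, had 0 counts in both SW480 libraries and 190 and 512 counts in control and knockdown SW620 cells. This was 201-fold the level of the 3 counts allowed over both SW480 libraries, with no error allowed on the SW620 counts. ZNF391, a zinc finger gene, had 0 and 2 counts in control and knockdown SW480 cells and 24 and 35 in SW620, a ratio of 25.3 with a 95% counting interval of 6.71 to 214. GUSBP2, a pseudogene, had 0 and 1 counts in SW480 and 16 and 37 in SW620, a ratio of 45.5 with an interval of 7.82 to 1831. TRIM38 and BTN1A1 went the other way. TRIM38 had 234 and 280 counts in SW480 and 50 and 113 in SW620, a log2 difference of -1.95 (SE 0.20). BTN1A1 had 11 and 11 counts in SW480 and 0 and 1 in SW620, control before knockdown. HFE (-0.31, SE 0.24), ABT1 (0.16, SE 0.13), PRSS16 (-0.03, SE 0.24) and ZNF184 (0.12, SE 0.21), which lie among them, did not pass. In parts of this region, genes near to absent in SW480 thus lay beside genes read alike in both lines, for histones and for other genes. The histone genes with a count from HIST1H1D to HIST1H2BI, in contrast, were all at 0 in SW480.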
